A study of Anopheles gambiae with 6 samples.

Results

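Chromosome arm 3L of the malaria mosquito Anopheles gambiae was represented by 2494 probe sets, chosen because their array identifiers begin with Ag.3L, out of 16884 Anopheles probe sets and 22761 rows in all. These identifiers carry a number after the arm's name, and probe sets that share a number were reduced to the brightest one over the 6 arrays, which left 2198 numbers on 3L of 14906 over all arms and the unplaced class. Of the 2198 numbers, 1950 had 1 probe set and 248 had between 2 and 5. The tissue under test was the salivary gland dissected from larvae of instar 4, in 3 pools of 50 larvae each, and it was compared with whole larvae of the same instar, in 3 pools of 200 larvae each. Every pool came from the G3 laboratory strain, reared under a single regime with no experimental treatment named, and each was hybridised to its own Affymetrix array after labelling with biotin. Glands were dissected and stored in ethanol before RNA extraction, and the pools are called biological repeats by the submitters, whose protocol gives a range of 50 to 200 larvae per repeat. The study asked which transcripts are enriched in the larval gland, and whole larvae contain the gland, so a tissue was set against an animal that includes it.

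The mosquito genome is carried on sex chromosomes and on the autosomes 2 and 3, each autosome has a right and a left arm, and 3L is the left arm of chromosome 3. Genes that arose by tandem duplication often lie side by side, and such neighbours can share the tissue in which they are expressed. The larval salivary gland is a secretory organ that opens into the mouth and delivers proteins during feeding, and its cells are known for their large polytene chromosomes. The sources used here do not say whether identifier numbers follow the position of genes along the arm, and none of the 3L identifiers was paired with a gene in the gene table used here (0 of 2494). Members are therefore named by identifier, "neighbour" means the next number, and the gland label could not be checked against marker genes. Probe sequences were not used here either, so shared sequence between neighbouring probe sets was not tested. In a bulk sample, fewer cells of a type and less RNA per cell cannot be told apart.

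Values are log2 RMA values, which compare one probe set between arrays but do not rank different probe sets by abundance. Across the 2198 numbers, gland arrays correlated with each other at Pearson's r of 0.975 to 0.987, whole-larva arrays at 0.937 to 0.955, and gland with whole-larva arrays at 0.775 to 0.821. The median SD of a number was 0.147 in gland and 0.251 in whole larvae (n = 3 arrays each). As a mark of dimness, the 95th percentile of 290 probe sets with purely numeric identifiers was taken on each array. This floor was chosen with earlier results known and averaged 6.65 ± 0.036 on the gland arrays against 6.02 ± 0.075 on the whole-larva arrays (SD, n = 3 each). On single arrays, 27.3% to 27.8% of the 3L numbers exceeded it in gland and 43.5% to 48.6% in whole larvae. The same percentile of 4502 Plasmodium probe sets gave a much lower floor, 4.12 to 4.18 on gland arrays and 3.88 to 4.08 on whole-larva arrays. Dim, below, refers to the numeric floor only. The number of arrays limits the precision of every value below.

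The middle of the 3L distribution lay close to 0, and the strong differences were more often deficits than excesses in the gland. The median difference, gland minus whole larva, was 0.05 on the log2 scale with an interquartile range of -0.32 to 0.31, beside a median of 0.07 over all 14906 numbers. With arrays centred on the numeric identifiers, an alternative added later that moved the median of all numbers by -0.42, the 3L median was -0.37. In limma's moderated test, 62 numbers rose in gland (2.82%) and 133 fell (6.05%) at a 2-fold limit and a Benjamini-Hochberg adjusted p below 0.01. Over all numbers the same rule called 2.39% higher and 4.71% lower. On other arms, rises made up 2.93% of 2L, 1.95% of 2R, 2.87% of 3R and 2.496% of X, and falls made up 5.37% of 2L, 5.85% of 2R, 4.36% of 3R and 2.66% of X. Shares on 3L were therefore close to those of 2L, and no test between arms was made. The 62 rises had a median gland level of 9.77 against 7.20 in whole larvae, and the 133 falls a median of 5.80 in gland against 8.53 in whole larvae. The test called 33, 25 or 33 rises and 81, 77 or 80 falls when gland replicate 1, 2 or 3 was left out, and the plain equal-variance test that the series' design names gave 11 rises and 22 falls at the same limits.

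A broader description used no test: a difference of at least 2-fold with gland and whole-larva values that did not overlap. By this rule 88 numbers of 3L were higher in gland (4.00%) and 215 lower (9.78%), beside 3.70% higher and 8.14% lower over all numbers. Without a fold limit, the groups did not overlap for 515 numbers higher in gland (23.4%) and 422 lower (19.2%), against 24.6% and 16.9% over all numbers. Of the 88 higher numbers, 34 were at least 4-fold higher, a limit that 1.09% of all numbers passed, 11 were at least 16-fold higher and none reached 32-fold (0). Of the 215 lower numbers, 102 were at least 4-fold lower, beside 3.71% of all numbers, 27 at least 16-fold and 13 at least 32-fold lower. Shares over all numbers were not taken at the 16-fold and 32-fold limits, so those counts describe 3L only. In 152 of the 215, beside 1511 of all 2198 numbers of 3L, all gland values lay at or under the numeric floor. The differences of such numbers, here and below, are as measured. By that floor, only a bound on the fold can be given. The 215 had a median gland level of 5.86, which is above the Plasmodium floor of every gland array, so the bounds depend on the floor chosen. A bound above 1 was had for 123 of the 152. It was at least 2-fold in 70 numbers, at least 4-fold in 37 and at least 16-fold in 9. The values nearest to the limits were 1.004 for Ag.3L.1269.0_CDS_at inside and 0.9998 for Ag.3L.1871.0_CDS_at outside, and -1.004 for Ag.3L.886.0_CDS_a_at inside and -0.997 for Ag.3L.2210.0_at outside. Other probe sets of the same number existed for 47 of the higher or lower numbers, and 49 of those 56 probe sets had a difference of the same sign as the brightest one, 31 of them past the same limits.

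**Figure D1:**
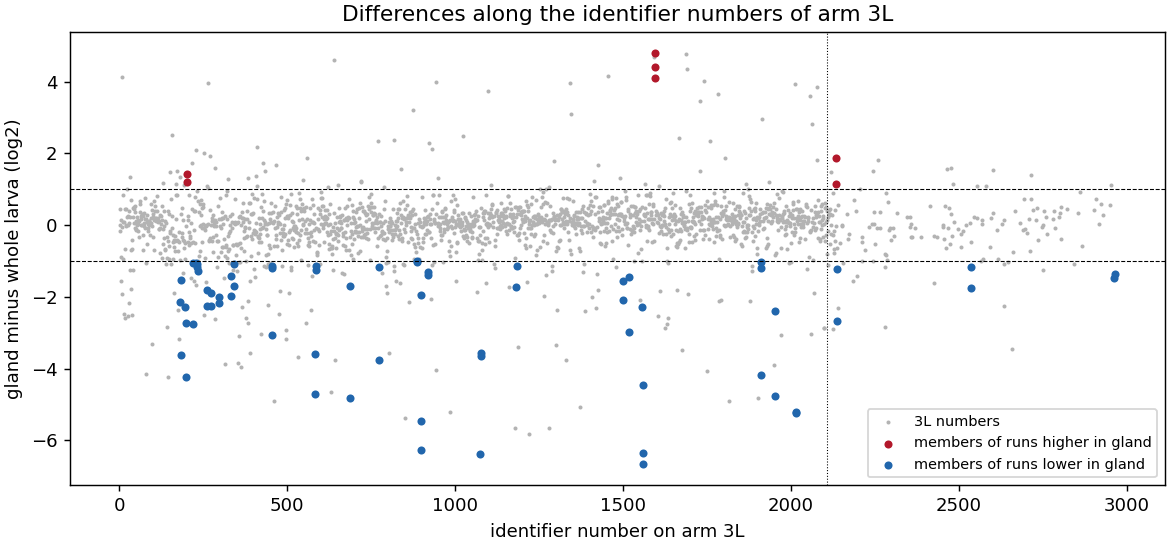
The gland minus whole-larva difference (log2, vertical axis) of each of the 2198 numbers of arm 3L is plotted against its identifier number; red and blue points are members of runs of consecutive numbers higher or lower in gland, dashed lines mark a 2-fold difference, and the dotted line marks number 2108. Red runs are few (3), blue runs are many (29), and the deepest deficits (down to -6.66) are larger than the highest rises (up to 4.80).

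The 8 largest rises on the arm lay between 4.14 and 4.80 on the log2 scale. Ag.3L.1596.0_CDS_at measured 13.60, 13.92 and 13.71 on the gland arrays, against 8.80, 9.09 and 8.93 in whole larvae, which is 28.0-fold (log2 difference 4.80, SE 0.197, limma adjusted p = 2.11e-05). Ag.3L.1686.0_CDS_at measured 11.48, 11.56 and 11.68 in gland against 6.50, 6.64 and 7.28 in whole larvae, a difference of 4.77 (SE 0.261, limma adjusted p = 4.54e-05). In both, the lowest gland array stood more than 4 log2 units above the highest whole-larva array. Ag.3L.1592.0_CDS_at followed with a difference of 4.69, Ag.3L.638.0_CDS_at with 4.60, Ag.3L.1595.0_CDS_at with 4.41, number 1690 with 4.34 and Ag.3L.1456.0_CDS_at with 4.17, with limma adjusted p-values between 4.85e-05 and 4.49e-04. The eighth, Ag.3L.9.0_CDS_s_at, varied most among gland arrays, with 9.76, 10.77 and 12.15 in gland against 6.61, 6.98 and 6.67 in whole larvae (difference 4.14, SE 0.542, limma adjusted p = 0.00199, and 0.0129 without gland replicate 2). Of the 11 numbers at least 16-fold higher on the arm, 4 lay between 1592 and 1596.

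Deficits went deeper, and 7 of the 8 largest had gland values at or under the numeric floor on every array, so for those the fold is a lower bound, computed against the floor. Ag.3L.1558.0_CDS_at measured 6.23, 6.22 and 6.29 in gland against 11.89, 13.28 and 13.56 in whole larvae. The gland was at least 76.6-fold dimmer, and the log2 difference as measured was -6.66 (SE 0.418, limma adjusted p = 6.97e-05). Ag.3L.1075.0_CDS_at measured 5.06, 5.34 and 5.27 in gland against 11.88, 11.002 and 11.91 in whole larvae, a measured difference of -6.38 (SE 0.289, limma adjusted p = 2.48e-05) with a bound of at least 30.8-fold. These gland values differ from each other by less than 0.3 log2 units, whereas the whole-larva values spread over nearly 1 unit or more. Next came Ag.3L.1560.0_CDS_at (-6.35, at least 47.3-fold), Ag.3L.898.0_CDS_at (-6.26, at least 29.2-fold), Ag.3L.1177.0_CDS_s_at (-5.67, at least 13.2-fold), Ag.3L.1280.0_CDS_a_at (-5.65, at least 15.5-fold) and Ag.3L.899.0_CDS_at (-5.46, at least 15.0-fold). For number 1177 the value depended on the probe set: the difference was -1.84 without _s_at and _x_at probe sets and -3.75 as the mean of its 2 probe sets. The limma adjusted p-values of these 5 numbers, as first given, ranged between 2.48e-05 and 4.93e-04. The exception to the dim gland values was Ag.3L.1220.0_CDS_at, with 7.60, 6.95 and 6.44 in gland against 12.55, 12.72 and 13.20 in whole larvae, a 56.6-fold deficit in gland (difference -5.82, SE 0.337, limma adjusted p = 5.36e-05).

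Numbers that differed strongly sometimes stood together. Runs were defined as 2 or more consecutive numbers that all met the 2-fold, no-overlap rule in the same direction, and since the differences themselves chose them, runs are described without a test. Arm 3L held 3 runs higher in gland, with 7 numbers, and 29 runs lower in gland, with 66 numbers. Of all 32 runs, 24 had 2 numbers, 7 had 3 and 1 had 4. Runs of 3 or more numbers included 1 higher run and 7 lower runs.

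The higher run of 3 covered numbers 1594 to 1596, with differences of 4.11, 4.41 and 4.80, and it was the strongest of the 3 higher runs. Ag.3L.1594.0_CDS_at measured 12.49, 12.12 and 10.22 in gland against 8.87, 6.22 and 7.42 in whole larvae. It varied far more between pools than its neighbours did and was not among the limma calls. Ag.3L.1595.0_CDS_at measured 13.73, 13.67 and 13.74 in gland against 10.02, 8.77 and 9.13 in whole larvae. Its lowest gland array stood more than 3 log2 units above its highest whole-larva array. Number 1592 had a difference of 4.69, with 12.71, 12.88 and 12.33 in gland against 7.57, 8.21 and 8.08 in whole larvae. Number 1593 lies between and broke the run: Ag.3L.1593.0_CDS_at averaged 5.59 ± 0.20 on gland arrays against 6.04 ± 0.60 on whole-larva arrays (SD over 3 arrays), which is -0.45 with overlapping groups. Number 1597 had no probe set among the rows analysed. The other higher runs were weaker, and neither was a run when arrays were centred on the numeric identifiers. Numbers 201 and 202 differed by 1.21 and 1.43, and the brightest probe set of number 202 was a UTR one whose CDS partner differed by 1.25. Number 2134 measured 11.08, 10.81 and 10.74 in gland against 9.58, 8.90 and 8.49 in whole larvae, a difference of 1.89, and number 2135 measured 10.73, 10.82 and 11.41 in gland against 9.61, 9.70 and 10.21 in whole larvae, a difference of 1.15. A lower run followed without a gap: numbers 2136 and 2137 differed by -1.23 and -2.67, and number 2137 measured 7.15, 7.13 and 6.69 in gland against 9.76, 9.60 and 9.60 in whole larvae.

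Among the lower runs, numbers 1557 to 1560 formed the only run of 4, with differences of -2.29, -6.66, -4.45 and -6.35. Ag.3L.1557.0_CDS_at measured 5.84, 5.95 and 5.61 in gland against 7.93, 8.17 and 8.17 in whole larvae. Number 1559 measured 6.29, 6.68 and 6.41 in gland against 10.47, 10.70 and 11.57 in whole larvae, and Ag.3L.1560.0_CDS_at measured 5.94, 5.80 and 5.84 in gland against 11.62, 12.33 and 12.69 in whole larvae. Numbers 1557, 1558 and 1560 were at or under the numeric floor on every gland array, and gland and whole-larva values were far apart in all 4. For numbers 1558, 1559 and 1560, whole-larva replicate 1 gave the lowest value and replicate 3 the highest. Outside the run, number 1556 differed by 0.52 and number 1561 by 0.32, both toward the gland. Number 1556 averaged 4.96 in gland and 4.44 in whole larvae, and number 1561 averaged 5.48 and 5.16. These means lay under the mean numeric floor of their group.

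The run of numbers 1075 to 1077 had differences of -6.38, -3.57 and -3.65. Ag.3L.1076.0_CDS_at measured 6.31, 6.26 and 6.37 in gland against 9.90, 9.14 and 10.61 in whole larvae, and Ag.3L.1077.0_CDS_at measured 4.54, 4.05 and 4.08 in gland against 7.57, 7.59 and 8.45 in whole larvae. All 3 numbers were dim in gland, and whole-larva replicate 3 gave their highest value. Outside the run, number 1074 differed by -0.27 and number 1078 by 0.48, with overlapping groups in both. Number 1074 averaged 3.71 in gland and 3.97 in whole larvae, and number 1078 averaged 4.94 and 4.46. These means also lay under the mean numeric floor of their group. Numbers 897 to 899 differed by -1.95, -6.26 and -5.46. Ag.3L.898.0_CDS_at measured 5.36, 4.95 and 5.47 in gland against 11.62, 11.88 and 11.05 in whole larvae, and Ag.3L.899.0_CDS_at measured 5.03, 5.27 and 5.00 in gland against 10.80, 10.80 and 10.07 in whole larvae. In that pair whole-larva replicate 3 was the lowest array, the opposite of the order in numbers 1558 to 1560 and 1077.

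Runs of 2 included some with deep deficits in both members. Ag.3L.2014.0_CDS_at measured 5.89, 6.12 and 5.46 in gland against 10.01, 11.38 and 11.82 in whole larvae. Its neighbour Ag.3L.2015.0_CDS_at measured 6.16, 5.93 and 6.15 in gland against 11.21, 11.22 and 11.40 in whole larvae. Their differences were nearly equal, at -5.25 and -5.20, but the first varied between whole-larva pools (SD 0.945) and the second did not (SD 0.104). Ag.3L.583.0_CDS_at measured 5.27, 4.95 and 4.91 in gland against 9.57, 10.08 and 9.58 in whole larvae, and Ag.3L.584.0_CDS_at measured 4.45, 4.61 and 4.34 in gland against 8.06, 7.90 and 8.18 in whole larvae. Both were dim on every gland array, and their differences were -4.70 and -3.58. Numbers 1951 and 1952 by -4.77 and -2.40, numbers 687 and 688 by -4.82 and -1.68, numbers 772 and 773 by -3.77 and -1.16, and numbers 1517 and 1518 by -1.45 and -2.98. In number 687 the gland arrays were far apart, with 5.72, 7.96 and 5.06 against 11.21, 11.01 and 10.97 in whole larvae. The other 16 lower runs of 2 had mean deficits between 1.01 and 2.08, and 8 of the 29 lower runs began in numbers 201 to 400. The weakest run was that of numbers 885 and 886, with differences of -1.014 and -1.004, and the other probe set of number 886 differed by -0.47.

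The remaining runs of 3 were less even, and single arrays weighed on them. Numbers 197 to 199 differed by -2.29, -2.72 and -4.24, and whole-larva replicate 1 was the lowest array in each: Ag.3L.197.0_CDS_at measured 7.13, 6.74 and 6.51 in gland against 7.52, 9.76 and 9.98 in whole larvae. Numbers 182 to 184 differed by -2.15, -1.52 and -3.63, and in Ag.3L.184.0_UTR_at gland replicate 3 lay at 4.58 beside 8.91 and 8.53 for the other gland arrays, against 12.53, 10.10 and 10.28 in whole larvae. Numbers 454 to 456 differed by -1.14, -3.07 and -1.20. There the middle number had 3 probe sets, and the other 2 differed by only -0.61 and -0.28. Numbers 1910 to 1912 differed by -1.20, -4.17 and -1.04, and the next number, Ag.3L.1913.0_CDS_at, went the other way with a gland mean of 12.89 ± 0.11 against a whole-larva mean of 9.94 ± 0.35 (SD over 3 arrays), which is 2.95 higher.

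**Figure D2:**
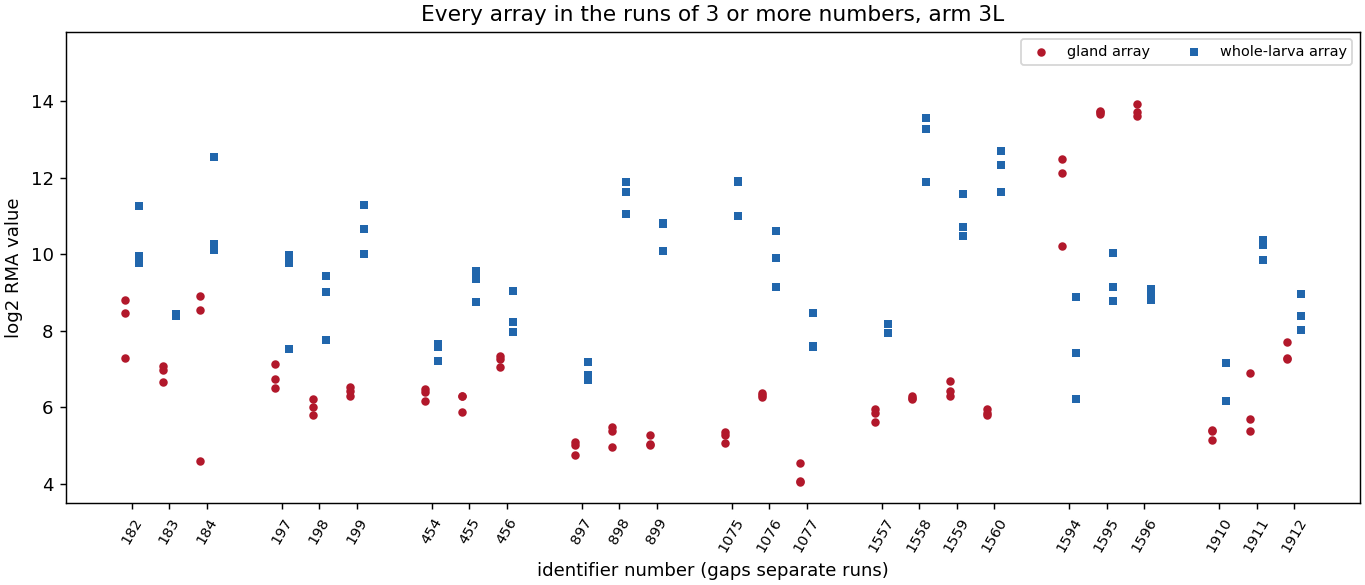
Log2 RMA values of all 6 arrays are shown for the 25 numbers that make up the 8 runs of 3 or more consecutive numbers; red circles are the 3 gland arrays, blue squares the 3 whole-larva arrays, and gaps separate runs. In the run 1594 to 1596 the gland points lie on top, in the other 7 runs they lie below, and the gland arrays of numbers 184 and 1594 are spread widely.

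Most members of lower runs were dim in gland, but so were most numbers of the arm (1511 of 2198). Of the 66 members, 43 lay at or under the numeric floor on all 3 gland arrays, and in 13 of the 29 runs every member did. No member of any run (0 of 73) was at or under the floor on all whole-larva arrays. Some members were under it on part of those arrays, among them numbers 885, 886, 2963 and 2964. Number 2537 measured 6.25, 5.95 and 4.70 in whole larvae, against floors of 5.99, 5.97 and 6.11. When values under the floor were raised to it, an alternative added after the data were seen, 15 lower runs were left in place of 29, and 12 of the 29 were held whole, while all 3 higher runs were held. At a 4-fold limit, 1 higher run (1594 to 1596) and 7 lower runs were left. Probe sets with the suffix _s_at or _x_at, which can match several transcripts, made up 8 of the 73 members and touched 7 of the 32 runs. Without such probe sets 2 higher and 24 lower runs were found, and 23 of the original 29 lower runs were held whole.

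Consecutive numbers also went opposite ways. In 16 of 2015 consecutive pairs 1 number met the rule for higher and the other the rule for lower, beside 4 pairs with both higher and 37 with both lower. Opposite pairs numbered 24 of 2761 on 2L, 31 of 3537 on 2R, 18 of 2514 on 3R and 5 of 1118 on X. The unplaced class had 1 of 1485. Such pairs are thus not particular to 3L. The widest gap was between Ag.3L.943.0_CDS_at and Ag.3L.944.0_CDS_at. The first measured 13.37, 13.24 and 12.10 in gland against 8.40, 8.99 and 9.33 in whole larvae (difference 4.00), and the second measured 5.10, 5.03 and 4.92 in gland against 8.98, 9.11 and 9.07 in whole larvae (difference -4.04). In both, gland and whole-larva arrays were more than 2 log2 units apart, in opposite directions, and number 944 was dim on every gland array. Numbers 8 and 9 differed by -1.93 and 4.14, numbers 637 and 638 by -1.25 and 4.60, and numbers 251 and 252 by -2.51 and 2.001. In the pair of numbers 1783 and 1784, with differences of 3.67 and -2.12, the second rested on 1 pool: Ag.3L.1784.0_CDS_at measured 6.86, 6.78 and 6.92 in gland against 7.59, 11.77 and 7.57 in whole larvae. Its limma adjusted p was 0.187.

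Having a changed neighbour was more common for lower numbers than for numbers at large. Of the 196 lower numbers whose next number was present, 18.9% were followed by another lower one, whereas 10.02% of all next numbers on the arm were lower. Of the 74 higher numbers with a next number, 5.41% were followed by a higher one, against 3.92% of all next numbers. The same shares for lower numbers were 15.5% against 9.60% on 2L, 14.1% against 9.47% on 2R, 11.9% against 8.11% on 3R and 1.85% against 5.19% on X, where only 54 lower numbers had a next number. In the unplaced class they were 15.4% against 2.22%, a wider contrast than on 3L, with 39 lower numbers that had a next number. Per 100 consecutive pairs, 3L had 1.59 runs, 2L 1.70, 2R 1.27, 3R 1.03, X 0.268 and the unplaced class 0.337. For higher runs alone the figures were 0.149 on 3L and 0.471 on 2L. No test between arms was made, so none of these figures is called particular to 3L.

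The differences of neighbours were weakly correlated. Over the 2015 consecutive pairs of 3L, Pearson's r was 0.154 and Spearman's rho 0.100. These are descriptions across numbers that share the same 6 arrays, and neighbouring pairs also share members. At a distance of 2 numbers r was 0.0950, and at distances of 3 to 10 it lay between -0.0190 and 0.0417. At distance 1 the other arms gave 0.103 (2L), 0.0868 (2R), 0.0783 (3R) and 0.0821 (X), and the unplaced class gave 0.137. With same-numbered gland and whole-larva arrays taken 1 pair at a time, r on 3L lay between 0.133 and 0.153. The 10 pairs with the largest products made up 64.0% of the summed product, a net sum in which negative products cancel. That share was 63.2% on 2L, 61.2% on 2R, 70.6% on 3R, 103% on X and 114% in the unplaced class, so it is not particular to 3L. On 3L, r was 0.0911 over the 1884 pairs left when differences beyond 3 either way were left out. Array deviations from the group mean, which the contrast does not use, correlated between neighbours at 0.00357 to 0.0114 on the gland arrays and 0.0815 to 0.0966 on the whole-larva arrays.

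**Figure D3:**
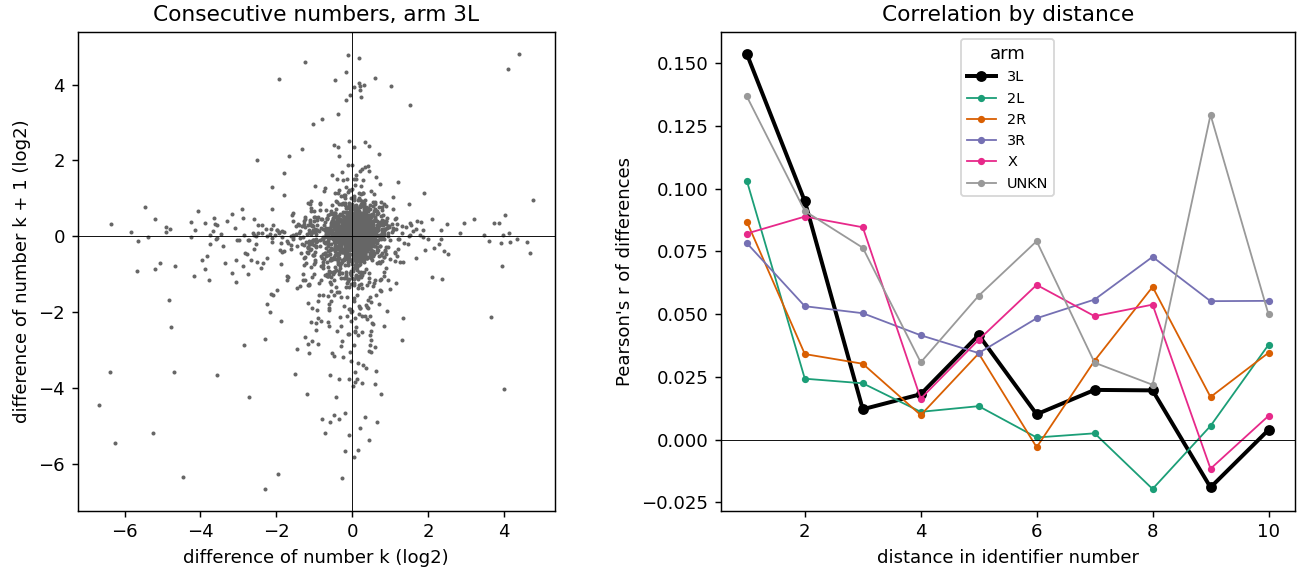
Left, the difference (gland minus whole larva, log2) of each number on 3L is plotted against that of the next number for 2015 pairs; right, Pearson's r of the differences is plotted against the distance in identifier number for each arm and the unplaced class (UNKN). Most points on the left form a cross around 0 with few pairs far out on the diagonal, and the 3L line on the right starts at 0.154 and is near 0 from a distance of 3 on.

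The number order was not neutral with respect to level. Probe sets marked CDS or UTR ended at number 2108 on 3L, and none of the 166 numbers above it, up to 2964, had that form. Each other arm and the unplaced class likewise had a last such number, between 1125 and 3630. On 3L, numbers above 2108 held 1 higher and 3 lower runs in only 55 consecutive pairs. Numbers up to 2108 held 2 higher and 26 lower runs in 1959 pairs. Within the first 2108, level declined along the order, with a Spearman's rho between number and mean level of -0.370 over 2032 numbers. The median level was 6.97 in numbers 1 to 200, 7.38 in 201 to 400 and 5.42 in 2001 to 2108. Probe sets with the suffix _a_at made up 41.0% of those in numbers 201 to 400 and 13.5% of those in the last block, and 43 of the probe sets in 201 to 400 were marked UTR, against 0 in the last block. The share of numbers lower in gland was largest in the blocks up to number 600, which also had the highest median levels. Past number 600 it did not fall steadily with level. It was 11.4% in numbers 1 to 200, 20.8% in 201 to 400, 13.6% in 401 to 600, 6.63% in 601 to 800, 11.2% in 801 to 1000 and between 5.76% and 8.51% beyond. The share higher in gland moved between 1.54% and 5.73%. In numbers 1 to 200, 201 to 400 and 401 to 600, 56.5%, 83.3% and 64.1% exceeded the numeric floor on every whole-larva array. Later blocks had 16.8% to 39.3%. How far this shaped the share lower in gland was not tested. The part that level or probe set type plays in the runs was not tested.

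**Figure D4:**
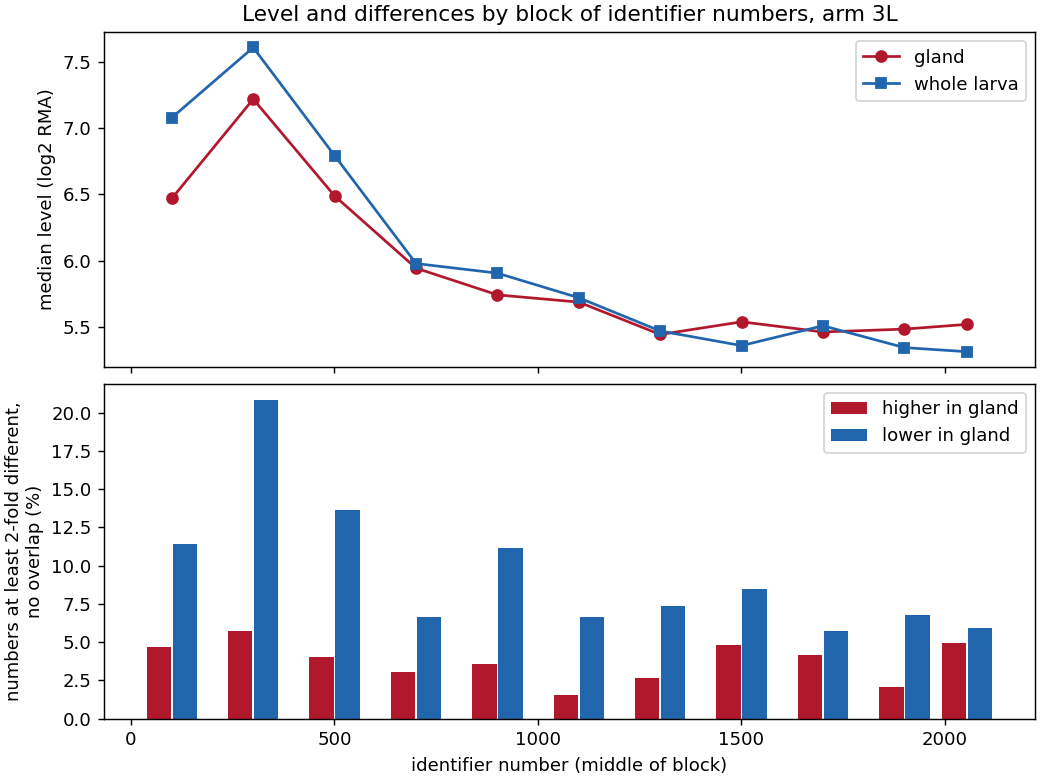
For blocks of 200 identifier numbers up to number 2108, the upper panel shows the median log2 RMA level over numbers in gland (red circles) and whole larvae (blue squares), and the lower panel the percentage of numbers at least 2-fold higher (red) or lower (blue) in gland with no overlap. Median levels decline from the second block onward to about number 1400, and the blue bar is tallest, at 20.8%, in numbers 201 to 400.

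The neighbour correlation differed between blocks that held runs. Numbers up to 600 held 13 of the 29 lower runs, and r between neighbours was 0.0390 in numbers 1 to 200, -0.0210 in 201 to 400 and 0.0946 in 401 to 600. The highest values were 0.462 in numbers 1401 to 1600, the block with the runs 1557 to 1560 and 1594 to 1596, and 0.302 in numbers 1001 to 1200, the block with the run 1075 to 1077. Levels of neighbours were more alike than their differences, with r of 0.440 at distance 1 and still 0.324 at distance 10. After a running median over 50 numbers on either side was subtracted, the level r at distance 1 was 0.206 and that of the differences 0.136.

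The brightest probe sets of 3L also stood close together, in a stretch chosen after the values were seen. Of the 30 numbers with the highest mean level over the 6 arrays, 18 lay among the 38 numbers present between 111 and 150, the 40 consecutive numbers that held most of them, whose median level was 11.31 beside 5.92 for the arm. The 3 brightest numbers were 121, 1 and 122. Ag.3L.121.0_CDS_a_at measured 13.96, 14.03 and 13.86 in gland against 14.30, 13.59 and 14.16 in whole larvae, and Ag.3L.122.0_CDS_s_at measured 14.03, 14.05 and 14.08 in gland against 13.94, 13.59 and 13.77 in whole larvae. Their differences of -0.07 and 0.29 did not pass limma's test (adjusted p = 0.848 and 0.217). Of the 38 numbers, 5 met the 2-fold, no-overlap rule, and the median difference of the stretch was 0.01. On the whole arm 4.00% of numbers met that rule as higher and 9.78% as lower, and over all numbers 3.70% and 8.14%.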

How the data were processed

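The authors deposited log2 values per probe set. The submitters' processing notes name RMA and no other method, and the sources used here give neither its version nor its settings. Identifiers name an arm and a number; rows were not paired with genes. The fit used limma 3.58.1 in R 4.3.3 (lmFit, eBayes with intensity trend) on all 16884 Anopheles probe sets and all 6 arrays, with a single term for group and p-values adjusted by Benjamini-Hochberg over all of them; 3L numbers were then read through their brightest probe set. On simulated gland and whole-larva arrays of 16884 probe sets, the count rule recovered 6 of 50 changes of 2-fold, 29 of 50 of 4-fold and 43 of 50 of 8-fold, and called 0 of 16684 unchanged ones. Simulated rows were independent normal draws with the same SD in both groups, and only 50 rows changed at each size. The 2-fold limit itself drops true 2-fold changes that are measured below it. These rates therefore do not carry over to the counts from the real arrays. The members, lists and alternatives were chosen with earlier results of these data known. Named numbers are the 8 largest called differences each way, members of runs, opposite neighbours, the 3 brightest and the values nearest the limits. Further runs and stretches were named after their values were seen. Same-numbered gland and whole-larva arrays had deviations correlated at -0.0874 to 0.102, and differently numbered ones at -0.169 to 0.186. With 3 arrays per group, these values cannot show whether the pools were paired, and the main fit treated them as unpaired. P-values measure the spread between pools only. No 2 arrays held identical values (0 pairs).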

Additional observations from a re-analysis of the deposited data

How the results depend on the processing

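The counts of rises and falls depended on the test and the scaling. Runs use no test, so alternatives of the test did not apply to them. The run 1594 to 1596 was whole in 19 of 19 alternatives (1557 to 1560 in 18, the exception being CDS probe sets only, where number 1559 has none). Several of these could not break it. A 1.5-fold limit, overlapping groups and skipped gaps only relax the rule, and its members have 1 probe set each, so choices among probe sets left them unchanged. Against 62 rises and 133 falls, the plain test of the series' design gave 11 and 22, a replicate block 42 and 105, repeated quantile normalization 96 rises with 128 falls (57.1% falls in place of 68.2%), centring on numeric identifiers 37 and 242 (86.7%), and a 4-fold limit 33 rises. Centring on numeric identifiers, added later, moved the median difference of all numbers by -0.42 and that of 3L to -0.37, a change of sign. It left 1 higher and 69 lower runs. Leaving out single arrays gave 25 to 58 rises, 77 to 161 falls, 3 to 4 higher and 28 to 36 lower runs, r of 0.146 to 0.156 and medians of 0.0366 to 0.0669. Higher runs numbered 7 after quantile normalization and 5 when groups could overlap; 1.5-fold gave 20 higher and 59 lower runs, 4-fold 1 and 7, and raising dim values to the numeric floor 15 lower. Neighbour r was 0.137 after quantile normalization, 0.119 with CDS probe sets only, 0.139 when gaps in numbering were skipped, 0.100 as Spearman's rho, 0.0911 without differences beyond 3, 0.136 with a running median subtracted and 0.137 with the mean of numbers of like level subtracted (the last 2 added later). Centring on the Anopheles median moved the 3L median to 0.0843. Of the 16 numbers with the largest differences, 7 stayed past an adjusted p of 0.01 in every alternative, 8 lost it in 1 (the plain test) and Ag.3L.9.0_CDS_s_at in 2. None changed sign, which tells little, because these numbers were chosen from the same data for their large differences. The causes were not tested. In 2065 of the 2198 numbers, the brighter group exceeded the Plasmodium floor on all of its arrays.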
